A study of Macaca mulatta with 14 samples.

Results

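Levels of 10 genes for proteoglycans and matricellular proteins of the extracellular matrix were followed through the conversion of rhesus monkey fibroblasts to neuroepithelial stem cells (NESCs). They are the small leucine-rich proteoglycans DCN, LUM and BGN, the large chondroitin sulphate proteoglycan VCAN, the adhesive glycoprotein FN1, and the matricellular proteins SPARC, POSTN, TNC, THBS1 and SPP1. They were chosen by name, all 10 were found, each at a single locus, and they are 10 of the 33688 gene loci with values.

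A proteoglycan is a core protein that carries sulphated sugar chains. The small leucine-rich proteoglycans bind collagen fibrils and set how the fibrils assemble, while versican (VCAN) binds hyaluronan and gives a loose, hydrated matrix. Fibronectin (FN1) links cells to that matrix through integrins, and the matricellular proteins modulate adhesion and growth factor signals without building fibres themselves. Connective tissue fibroblasts secrete most of these proteins, and the embryonic neural epithelium lies in a matrix that is poor in fibrillar collagen and rich in hyaluronan and chondroitin sulphate proteoglycans.

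RNA sequencing of ribosome-depleted RNA was available for 7 cell lines of Macaca mulatta, with 2 libraries for each line and 14 in all. RF-P3 are ear skin fibroblasts of 2 male fetuses of 65 days, grown in serum. RF-iN-d5 and RF-iN-d11 are the cells on day 5 and day 11 after infection with retroviruses that carry the rhesus sequences of OCT4, SOX2 and KLF4, on laminin in a serum-free medium with CHIR99021, SB431542, bFGF and vitamin C, to which the ROCK inhibitor Y27632 and valproic acid were added until day 5 and day 7, respectively. Whether cells of both fetuses were mixed is not given. CHIR-P6 and CHIR-P23 are epithelial colonies at passages 6 and 23 in a medium with human LIF and without those last additives, and C8-P7 and A9-P7 are colonies that were each raised from a single cell of passage 23. CHIR99021 inhibits the kinase GSK3, and SB431542 inhibits the receptors of TGF-beta, a known inducer of matrix genes. The labels list CHIR99021 in the NESC medium and the study's methods do not. All lines but RF-P3 had thus been infected and had left serum, so effects of the medium, of the factors and of the cell state cannot be told apart.

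The 3 lines up to RF-iN-d11 are called the earlier lines and the other 4 the NESC lines, and they are also named by their stage (fibroblasts, day 5, day 11, passage 6, passage 23, colony C8 and colony A9). Levels are FPKM, fragments per kilobase of transcript scaled to the depth of the library, and are comparable between genes because they are given per length. Both libraries of a line were closer to each other than sampling noise alone allows, since the squared difference of their fragment counts was 0.115 to 0.148 times their sum, where independent libraries give about 1. Each pair was therefore averaged and counted as 1 sample, which leaves a single sample per line. Fibroblast markers summed to between 4085 and 7284 FPKM in the earlier lines and to between 16.4 and 85.1 FPKM in the NESC lines (11 genes, COL1A1 among them), and neuroepithelial markers to between 158 and 323 and between 888 and 1526 FPKM (12 genes). Of the markers that define the neural epithelium, SOX1 was at 0.275, SOX3 at under 0.05 and PAX6 at 2.25 FPKM at passage 6, whereas SOX1 ranged from 3.40 to 11.9, SOX3 from 36.7 to 75.4 and PAX6 from 16.7 to 33.6 FPKM afterwards. At passage 6, 10 of the 12 neuroepithelial markers were above every earlier line, FABP7 (441 FPKM), NES (234 FPKM) and LIN28A (51.4 FPKM) among them, and 7 of the 12 were below every later line. In these bulk samples, fewer cells of a type and less RNA per cell cannot be told apart.

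DCN, LUM, POSTN, SPARC, TNC and FN1 were called lower in the NESC lines, and the size of the difference varied widely between the genes. DCN, POSTN and LUM went from more than 68 FPKM in every earlier line to below 6 FPKM in every NESC line, FN1 and SPARC fell but stayed above 10 FPKM, and VCAN was at 66.8 to 171 FPKM in the earlier lines and 55.8 to 78.3 FPKM in the NESC lines. When limma was used to set the NESC lines against the earlier ones, 6 of the 10 genes were called lower, 0 higher and 4 did not pass (a call needs an adjusted p under 0.05 and a log2 fold change of at least 1 in size). Over all 15024 genes tested, 13.2% were called lower and 7.57% higher. All 10 genes had a negative log2 fold change, with a median of -4.12, against -0.02 over all genes tested. All 10 passed the filter of 1 FPKM in at least 2 libraries, but BGN and POSTN passed it through the earlier lines alone, which fixed the direction of their difference. Of the 8 genes that passed it on both sides, 5 were called lower. DCN is among these 5, and on the NESC side it passed through CHIR-P6 alone. In 7 genes, 6 of them among the 8, every NESC line was below every earlier line, which held for 24.7% of all genes tested. The shares over all genes include those that passed on 1 side, and shares over genes that passed on both sides were not worked out.

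**Figure D1:**
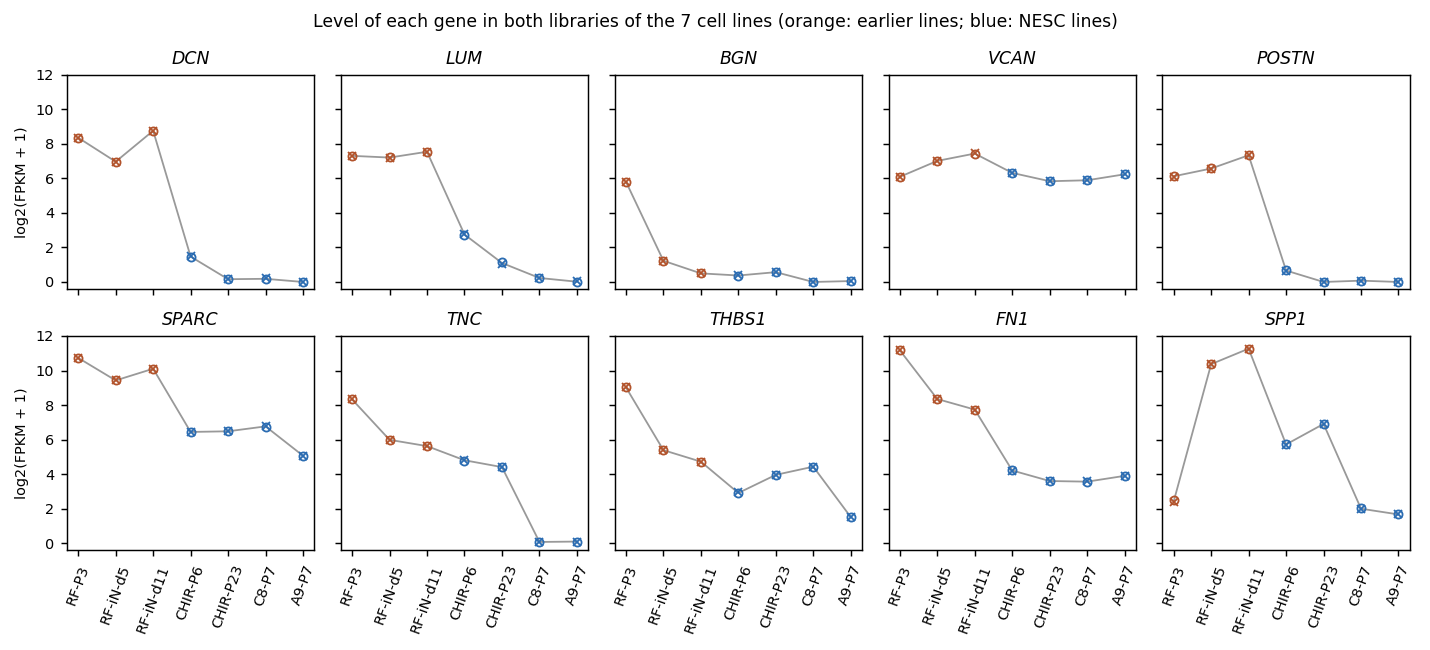
Level of each of the 10 genes on the log2(FPKM + 1) scale (vertical axes) in the 7 cell lines (horizontal axes), with a circle and a cross for the 2 libraries of a line and a grey line through their averages. DCN, LUM and POSTN drop at CHIR-P6, BGN and THBS1 drop most on day 5, FN1 drops on day 5 and again at CHIR-P6, TNC drops furthest in C8-P7 and A9-P7, and VCAN stays within 55.8 to 171 FPKM.

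The small leucine-rich proteoglycans differed in the stage at which they went down. DCN, decorin, was at 324 FPKM in the fibroblasts, 123 on day 5, 429 on day 11, 1.77 at passage 6, 0.117 at passage 23 and 0.135 in colony C8, and is listed at 0 in colony A9. It was highest on day 11 and was 243-fold lower at passage 6. LUM, lumican, a keratan sulphate proteoglycan that lies next to DCN in the genome, had 156, 146 and 184 FPKM in the earlier lines, 5.71 at passage 6, 1.14 at passage 23 and 0.174 and 0.0104 in colonies C8 and A9. Both DCN and LUM were higher on day 11 than in the fibroblasts, but only by 1.32-fold and 1.18-fold, with 1 sample per line and no test. LUM was lower at passage 23 than at passage 6 and lower still in both colonies. BGN, biglycan, which is closely related to decorin, was at 54.7 FPKM in the fibroblasts but already at 1.34 FPKM on day 5 and 0.411 FPKM on day 11, was at 0.296 and 0.482 FPKM at passages 6 and 23, is listed at 0 in colony C8 and was at 0.0369 FPKM in colony A9. BGN was thus 40.8-fold lower within the first 5 days, when LUM was 1.07-fold lower than in the fibroblasts.

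Over the 3 earlier lines DCN averaged 292 ± 155 FPKM (SD) and over the 4 NESC lines 0.505 ± 0.844 FPKM, and its decrease passed the test (log2 fold change -7.56, SE 0.50, adjusted p = 9.8e-05, limma). For LUM these means were 162 ± 19.9 and 1.76 ± 2.68 FPKM, and it was also called lower (log2 fold change -6.32, SE 0.60, adjusted p = 4.3e-04, limma). In both genes every NESC line was below every earlier line. BGN, with means of 18.8 ± 31.1 and 0.204 ± 0.227 FPKM, was not called (log2 fold change -2.26, SE 1.13, adjusted p = 0.15, limma), and RF-iN-d11 lay below CHIR-P23. Without RF-P3 its log2 fold change was -0.61 (adjusted p = 0.11), so its difference rests on the fibroblasts.

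Among the proteoglycans DCN, LUM, BGN and VCAN, VCAN was the one that the NESC lines kept. It was at 66.8 FPKM in the fibroblasts, 127 on day 5, 171 on day 11, 78.3 at passage 6, 55.8 at passage 23, 58.0 in colony C8 and 74.0 in colony A9. Both days of induction were above all other lines, and RF-P3 lay within the range of the NESC lines. The 4 NESC lines averaged 66.5 ± 11.3 FPKM (SD) and the 3 earlier lines 122 ± 52.5 FPKM, and the difference did not pass the test (log2 fold change -0.78, SE 0.30, adjusted p = 0.079, limma). Without RF-P3 the log2 fold change was -1.15 (adjusted p = 0.0049, called), and without RF-iN-d11 it was -0.48 (adjusted p = 0.23).

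FN1, the adhesive glycoprotein of the provisional matrix, was the most abundant of the 10 genes in the fibroblasts and went down in 2 steps. It was at 2301 FPKM in the fibroblasts, 325 on day 5, 213 on day 11, 17.6 at passage 6, 11.2 at passage 23, 10.9 in colony C8 and 13.98 in colony A9. It was 7.08-fold lower on day 5 than in the fibroblasts and a further 12.1-fold lower at passage 6 than on day 11, and then stayed within 10.9 to 17.6 FPKM. Its mean was 946 ± 1175 FPKM over the 3 earlier lines (SD) and 13.4 ± 3.12 FPKM over the 4 NESC lines, and FN1 was called lower (log2 fold change -5.26, SE 0.73, adjusted p = 0.0018, limma).

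Among the matricellular proteins, POSTN and SPARC had their largest drop between day 11 and passage 6. POSTN, periostin, which binds integrins and promotes collagen cross-linking, was at 68.2 FPKM in the fibroblasts, 93.5 on day 5, 159.9 on day 11, 0.581 at passage 6 and 0.0537 in colony C8, and is listed at 0 at passage 23 and in colony A9. Its level was highest on day 11, the last stage at which it was above 1 FPKM. The 3 earlier lines averaged 107 ± 47.4 FPKM (SD) and the 4 NESC lines 0.159 ± 0.283 FPKM (log2 fold change -6.48, SE 0.31, adjusted p = 5.2e-05, limma), a call whose direction the filter had fixed. SPARC, osteonectin, which binds collagen and calcium, had 1696, 687 and 1098 FPKM in the earlier lines, 86.2 at passage 6, 88.5 at passage 23 and 108 and 32.6 in colonies C8 and A9. Its level in the NESC lines was lower but not lost, with a mean of 78.8 ± 32.3 FPKM over the 4 lines (SD) against 1160.3 ± 508 FPKM over the 3 earlier ones, and it was called (log2 fold change -3.89, SE 0.45, adjusted p = 9.0e-04, limma).

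TNC and THBS1 were highest in the fibroblasts and went down on day 5, and both differed among the NESC lines. TNC, tenascin-C, which interferes with adhesion to fibronectin and is also made by radial glia, was at 320.4 FPKM in the fibroblasts, 62.6 on day 5, 48.4 on day 11, 27.0 at passage 6, 20.3 at passage 23, 0.0581 in colony C8 and 0.0749 in colony A9. Passages 6 and 23 thus had TNC at 8.43% and 6.33% of its level in the fibroblasts. The single-cell colonies C8 and A9 were 349-fold and 271-fold below CHIR-P23. TNC was called lower in the NESC lines (averages 11.9 ± 13.9 and 144 ± 153 FPKM, n = 4 and n = 3, log2 fold change -4.30, SE 1.37, adjusted p = 0.042, limma). This call was lost without any single line other than CHIR-P6 and CHIR-P23 (adjusted p = 0.069 to 0.12), and also with a pseudocount of 0.1 (0.063) and with no filter on low values (0.17).

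THBS1, thrombospondin-1, which activates latent TGF-beta and inhibits angiogenesis, was at 520.4 FPKM in the fibroblasts, 41.0 on day 5, 25.5 on day 11, 6.54 at passage 6, 14.6 at passage 23, 20.6 in colony C8 and 1.87 in colony A9. Every NESC line was below every earlier line, but C8-P7 came close to RF-iN-d11, and the colonies were 11.0-fold apart. Its means were 196 ± 281 FPKM over the 3 earlier lines (SD) and 10.9 ± 8.35 FPKM over the 4 NESC lines, and the gene was not called (log2 fold change -3.17, SE 1.09, adjusted p = 0.054, limma). It was called with a minimum of 5 FPKM (adjusted p = 0.048), after quantile normalization (0.048) and without RF-iN-d11 (log2 fold change -4.00, 0.044), and its log2 fold change was -1.85 without RF-P3. Markers of smooth muscle and myofibroblasts moved with these genes on day 5: their 6 genes summed to 2210 FPKM in the fibroblasts, 170.2 on day 5 and 24.4 on day 11, and all 6 were lower on day 5 than in the fibroblasts. The sum was higher again at passage 6 (181 FPKM, with 2 of the 6 genes higher than on day 11), where TNC and THBS1 were lower. It was 86.6 FPKM at passage 23, 87.9 in colony C8 and 4.33 in colony A9. Between the colonies, where THBS1 was high in C8 and low in A9, 5 of the 6 markers were higher in C8, and TAGLN, which encodes the actin-binding transgelin, made up most of the sum there (84.7 FPKM against 0.824 in A9), while DES was lower (0.282 against 2.42 FPKM). The part of such cells in the levels of TNC and THBS1 was not tested.

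SPP1, osteopontin, a phosphorylated glycoprotein that binds integrins and CD44, had a course of its own. It was at 4.38 FPKM in the fibroblasts, 1320.2 on day 5, 2456 on day 11, 51.8 at passage 6, 119 at passage 23, 3.01 in colony C8 and 2.19 in colony A9. It was thus low in the fibroblasts, 302-fold higher on day 5, higher still on day 11, intermediate in the passaged NESC cultures and low again in both colonies. The earlier and NESC lines overlapped because of RF-P3, and the difference was not called (averages 1260.2 ± 1227 and 44.0 ± 55.2 FPKM, n = 3 and n = 4, log2 fold change -3.94, SE 2.27, adjusted p = 0.20, limma). Without RF-P3 it was -6.74 (adjusted p = 0.016, called), and without RF-iN-d11 or RF-iN-d5 it was -2.32 or -2.77.

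SPP1 is also a gene of macrophages and osteoblasts. Of 8 macrophage markers, 2 reached 1 FPKM in any line, with sums of 0.743 to 6.01 FPKM, and the defining markers PTPRC and CSF1R were at 0.180 and 0.0383 FPKM or less in every line. Of 6 osteoblast markers, 4 reached 1 FPKM in a line, but SP7 was at most 0.9995 FPKM (in the fibroblasts), and DMP1 is listed at 0 throughout. On day 5, 4 of the 6 were higher than in the fibroblasts, with IBSP highest there (1.46 FPKM) and BGLAP highest on day 11 (3.12 FPKM), and the sum ranged from 5.80 FPKM in the fibroblasts to 52.7 FPKM in colony A9, of which ALPL gave 45.7. Endothelial markers summed to 3.04 FPKM in the fibroblasts and to 33.4 and 37.9 FPKM on days 5 and 11, most of it from TEK (27.1 and 24.0 FPKM). Of these 7 markers, 5 were higher on day 5 and 4 on day 11 than in the fibroblasts, while VWF and ERG were lower and TIE1 was at most 0.0414 FPKM. Neuron markers summed to 58.6 FPKM in the fibroblasts, 1063 on day 5, 647 on day 11 and 217 to 333 FPKM in the NESC lines. Of the 7 neuron markers, 6 were higher on day 5 than in the fibroblasts. The same 6 were lower on day 11 than on day 5, whereas SPP1 was higher on day 11. STMN2 (705 and 537 FPKM) and TUBB3 (334 and 100 FPKM) made up most of the sums on days 5 and 11. RBFOX3 and ELAVL4, which are among these 6, were at most 0.587 and 0.0575 FPKM in the earlier lines. The part of such cells in the level of SPP1 was not tested.

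**Figure D2:**
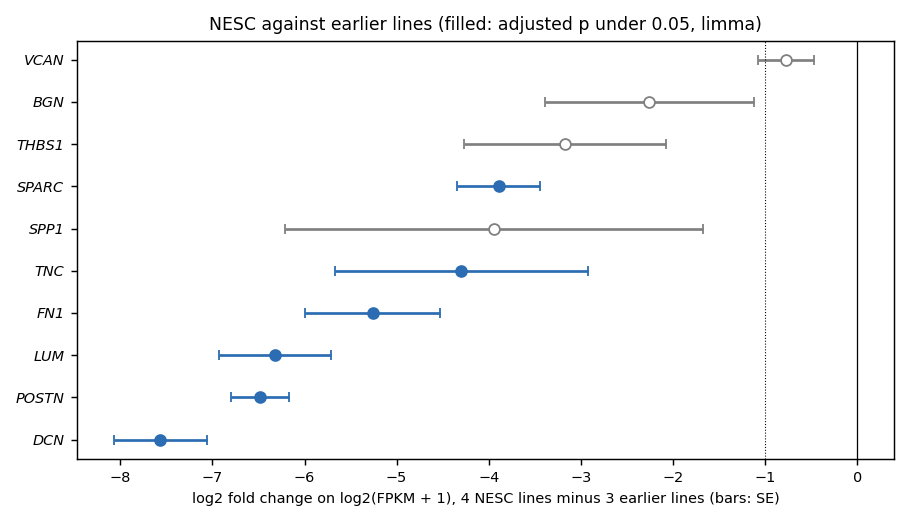
Log2 fold change of each gene on the log2(FPKM + 1) scale (horizontal axis), 4 NESC lines minus 3 earlier lines, with bars of 1 SE from limma and filled points for the 6 genes called lower. DCN has the largest decrease (-7.56) and VCAN the smallest (-0.78), and SPP1 has the widest error (SE 2.27).

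Because FPKM are given per length, the 10 genes can be summed. Their summed FPKM was 5512 in the fibroblasts, 2927 on day 5, 4785 on day 11, 276 at passage 6, 311 at passage 23, 201 in colony C8 and 125 in colony A9. This is 0.791% of all FPKM of the library in the fibroblasts and 0.0218% in colony A9. The sum dipped on day 5 and recovered on day 11, but the genes that made it up had changed: FN1 was the largest part in the fibroblasts (41.7%), and SPP1 on day 5 (45.1%) and day 11 (51.3%). Leaving out SPP1, the sum was 5508, 1607 and 2329 FPKM in these 3 lines. In the NESC lines the leading gene was SPARC at passage 6 (31.2%), SPP1 at passage 23 (38.3%), SPARC in colony C8 (53.7%) and VCAN in colony A9 (59.3%). The number of genes at 10 FPKM or more was 9 in each earlier line, 5 at passage 6, 6 at passage 23, 4 in colony C8 and 3 in colony A9.

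**Figure D3:**
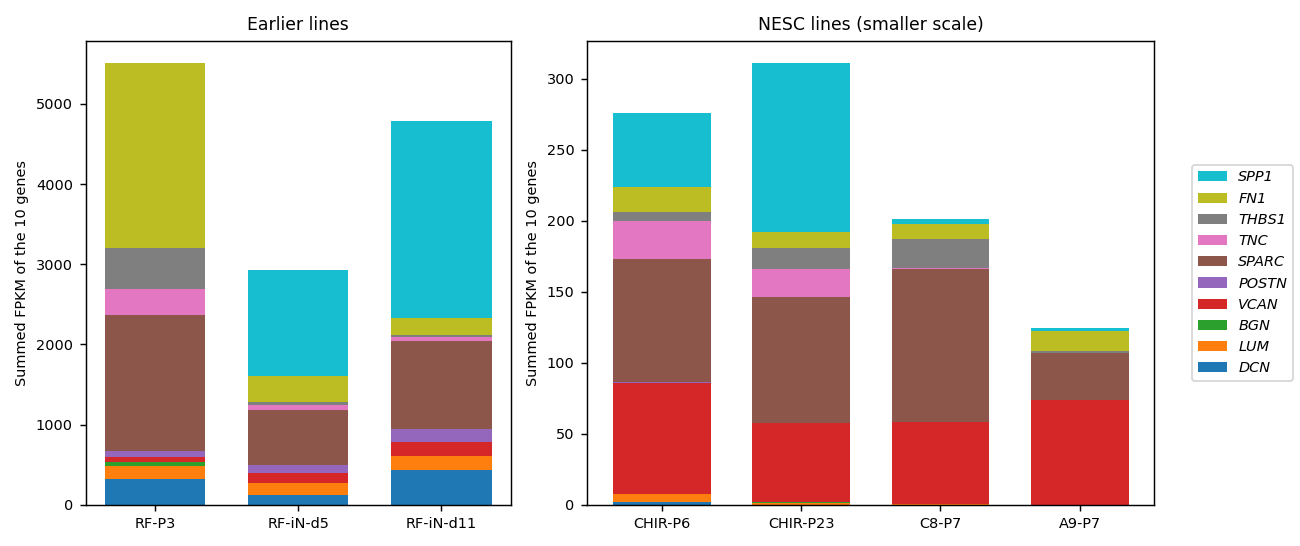
Summed FPKM of the 10 genes (vertical axes) in the earlier lines (left) and the NESC lines (right, on a smaller scale), with 1 colour for each gene. The bars fall from 2927 or more to 311 or less, and the largest segment changes from FN1 in the fibroblasts to SPP1 on days 5 and 11 and to SPARC, SPP1 or VCAN in the NESC lines.

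The stages were next compared with each other. With 1 sample per line these comparisons have no test, and a gene is counted where log2(FPKM + 1) differed by at least 1. This is a 2-fold difference of FPKM + 1, so that larger folds between low levels are not counted (LUM was 6.57-fold lower in colony C8 than at passage 23, for example). From the fibroblasts to day 5, 6 of the 10 genes were lower (BGN, THBS1, FN1, TNC, DCN and SPARC) and 1 was higher (SPP1), while 8.42% of all genes were lower and 9.37% higher. From day 5 to day 11, DCN alone was higher, by 3.48-fold, and 0 genes were lower (2.85% and 2.52% of all genes). POSTN, SPARC and SPP1 were 1.71-fold, 1.60-fold and 1.86-fold higher in the same step, and BGN, THBS1 and FN1 were 3.26-fold, 1.61-fold and 1.53-fold lower, all under the limit. From day 11 to passage 6, 8 genes were lower and 0 higher (13.1% and 8.49% of all genes), and the exceptions were BGN, which was already low, and TNC, which was 1.79-fold lower. The median log2 difference of the 10 genes was -1.34 in the first of these steps, 0.38 in the next and -3.59 in the last, against medians within 0.01 of 0 over all genes.

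Within the NESC lines, DCN and LUM were lower at passage 23 than at passage 6 and THBS1 and SPP1 were 2.23-fold and 2.30-fold higher (4.28% of all genes were lower and 1.39% higher). Against CHIR-P23, from which both were raised, C8-P7 was lower in TNC and SPP1 (2.39% of all genes were lower and 1.04% higher), and A9-P7 was lower in TNC, SPP1, THBS1, SPARC and LUM (2.59% and 1.57%), with 0 of the 10 genes higher in either. These 2 comparisons share CHIR-P23. Between the colonies, SPARC was 3.31-fold and THBS1 11.0-fold higher in colony C8 than in colony A9, and 0 genes were lower (1.19% and 1.33% of all genes). VCAN and FN1 were within 1.33-fold between CHIR-P23 and either colony. Relative depth, read from the steps between low values, was 1 in the fibroblasts, 1.27 in colony C8, 4.74 at passage 23 and 5.30 in colony A9, so that 0 in colony C8 rests on fewer fragments than 0 in colony A9.

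In the order of levels of each gene, the libraries of neighbouring lines overlapped only between C8-P7 and CHIR-P23 for DCN, and between CHIR-P23 and A9-P7 for POSTN, where both are listed at 0. At 1 FPKM or more, both libraries of a line differed by at most 12.4% of their average (LUM at passage 23), with a median of 0.503% over 54 levels. This is the spread between libraries that share most of their sampling noise, and differences between repeated cultures cannot be read from it.

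The other genes of this matrix were taken from lists written from general knowledge, with earlier results of these data known. The lists held 138 genes, of which 132 were found and 107 tested. Of the 107 genes, 49 were lower in the NESC lines, 9 were higher (the neural proteoglycans PTPRZ1, CSPG5, GPC2 and NCAN among them) and 49 did not pass, against 13.2% lower and 7.57% higher over all genes. Of the 49, 19 reached the filter through the earlier lines alone, and of the 9, 6 through the NESC lines alone (NCAN, CSPG5, GPC2, SMOC1, SPARCL1 and ITGB8), which fixed the direction of these calls. Of 8 further small leucine-rich proteoglycans tested, 6 were lower and 0 higher, and all 6 had passed through the earlier lines alone. OGN, osteoglycin, fell by 4.23 on the log2 scale (adjusted p = 2.1e-04, limma), from 31.9 FPKM in the fibroblasts to at most 0.0210 FPKM in the NESC lines. PRELP, which anchors basement membranes to connective tissue, was at 3.43 FPKM in the fibroblasts and 52.2 FPKM on day 11 before it fell (log2 fold change -3.92, adjusted p = 0.0065, limma). ASPN, asporin, was at 41.2, 8.31 and 0.914 FPKM in the earlier lines and is listed at 0 in all NESC lines (adjusted p = 0.026, limma). Its call was lost with a pseudocount of 5, with no filter and without RF-iN-d5, CHIR-P23, C8-P7 or A9-P7 (adjusted p up to 0.12).

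Of 5 hyalectans and link proteins tested, 1 was lower and 1 higher. HAPLN1, which ties versican to hyaluronan and lies next to VCAN in the genome, was at 1.22, 9.97 and 2.35 FPKM before passage 6 and at 0.106 FPKM or less from then on (log2 fold change -2.07, adjusted p = 0.015, limma, lost with a pseudocount of 5 or no filter). The direction of its call was fixed, since HAPLN1 passed the filter through the earlier lines alone. NCAN, neurocan, the hyalectan of the nervous system, is listed at 0 in all earlier lines and was at 1.13 FPKM at passage 6, 1.67 at passage 23, 16.6 in colony C8 and 25.1 in colony A9. Its rise was called (adjusted p = 0.040, limma), and the call was lost with a pseudocount of 5, with no filter and without any 1 earlier line or either colony (adjusted p up to 0.17).

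Of 19 proteoglycans of the basement membrane and the cell surface tested, 7 were lower, 4 were higher and 8 did not pass. PTPRZ1, a receptor phosphatase of neural progenitors whose secreted form is the proteoglycan phosphacan, was at 0.0385 FPKM in the fibroblasts, 6.34 on day 5, 13.2 on day 11, 56.9 at passage 6 and 105 to 136 FPKM in the later lines (log2 fold change 4.38, SE 0.81, adjusted p = 0.0057, limma). CSPG5, neuroglycan C, was under 0.6 FPKM in each earlier line and at 4.52 to 36.5 FPKM in the NESC lines (log2 fold change 3.88, adjusted p = 0.0033, limma). GPC2, a glypican of the developing nervous system, rose from at most 0.914 FPKM to 7.11 to 12.8 FPKM (log2 fold change 2.66, adjusted p = 4.4e-04, limma). SDC4, the syndecan that acts with integrins in focal adhesions, fell from 38.9 to 84.6 FPKM in the earlier lines to at most 2.07 FPKM (log2 fold change -5.04, adjusted p = 3.2e-04, limma). CSPG4, also known as NG2, fell by 4.58 on the log2 scale (adjusted p = 1.6e-04, limma). SRGN, the proteoglycan of secretory granules, was at 3.39, 7.63 and 24.2 FPKM in the earlier lines, is listed at 0 in all NESC lines and passed the filter through the earlier lines alone (adjusted p = 0.0031, limma).

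Of 19 other matricellular proteins tested, 12 were lower, 2 higher and 5 did not pass. TGFBI, a TGF-beta-induced adhesion protein, fell by 7.36 on the log2 scale, from 105 to 331 FPKM in the earlier lines to at most 1.03 FPKM (adjusted p = 7.9e-05, limma). EFEMP1, a fibulin, and MGP, the matrix Gla protein that inhibits calcification, were also lower (log2 fold changes -5.72 and -5.36, adjusted p = 7.9e-05 and 0.0017, limma). TGFBI, EFEMP1 and MGP all passed the filter through the earlier lines alone, which fixed the direction of their calls. SMOC1, which belongs to the SPARC family, moved in the opposite direction to SPARC: it is listed at 0 in the fibroblasts and on day 5, was at 0.200 FPKM on day 11, 8.92 at passage 6, 47.7 at passage 23, 83.2 in colony C8 and 65.1 in colony A9 (log2 fold change 5.25, SE 0.68, adjusted p = 0.0013, limma). SPARCL1, another relative of SPARC, rose by a log2 of 1.43 (adjusted p = 0.0091, limma, lost with a pseudocount of 5), with at most 4.53 FPKM.

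**Figure D4:**
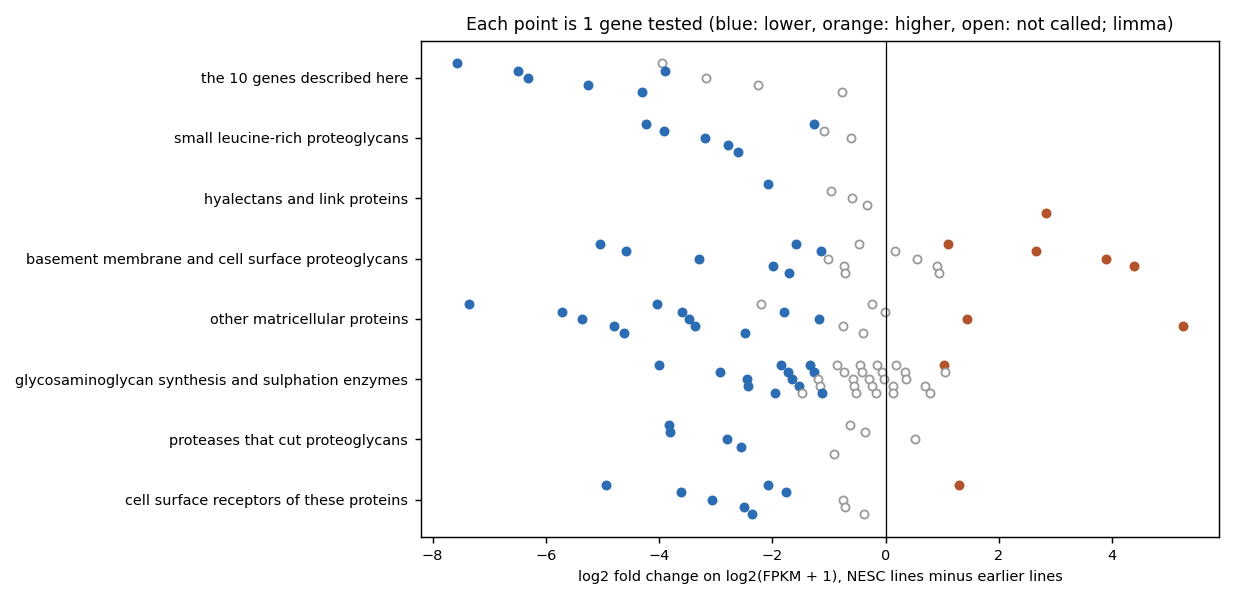
Log2 fold change on the log2(FPKM + 1) scale, NESC lines minus earlier lines (horizontal axis), for the 10 genes and for the tested genes of 7 related lists (1 point for each gene, filled blue when called lower, filled orange when called higher, open when not called). The 9 genes called higher, among them SMOC1 at 5.25 and PTPRZ1 at 4.38, lie in 5 of the 7 lists, and 49 genes were called lower.

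Of 37 enzymes tested that build and trim the sugar chains, 12 were lower, 1 was higher and 24 did not pass. HAS2, a hyaluronan synthase, was at 6.72, 31.4 and 48.9 FPKM in the earlier lines and at most 0.756 FPKM in the NESC lines (log2 fold change -3.99, adjusted p = 0.0021, limma). It passed the filter through the earlier lines alone, which fixed the direction of its call. The hyaluronan synthases HAS1 and HAS3 were not called. HAS3 was at 0.358, 0.588 and 6.89 FPKM in the earlier lines and 2.82 to 5.77 FPKM in the NESC lines (log2 fold change 1.05, adjusted p = 0.19, limma). HAS1 was at 6.58 FPKM in the fibroblasts and is listed at 0 in the NESC lines (adjusted p = 0.18, limma). The sulphatases SULF1 and SULF2, which remove sulphate from heparan sulphate, were lower (log2 fold changes -2.92 and -2.44, adjusted p = 0.020 and 3.4e-04, limma), and SULF1 was highest on day 5, at 74.6 FPKM. The call of SULF1 was lost with no filter and without RF-iN-d5, RF-iN-d11 or C8-P7 (adjusted p up to 0.098). HS6ST2, a heparan sulphate sulphotransferase, rose from 1.08 to 4.66 FPKM in the earlier lines to 5.32 to 7.07 FPKM (log2 fold change 1.03, adjusted p = 0.040, limma), a call that was lost in 9 of 18 alternatives.

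Of 8 genes tested on the list of proteases that cut proteoglycans or process matrix precursors, 4 were lower and 0 higher. ADAMTS1, which cuts versican, and BMP1, the procollagen C-proteinase, were among them (log2 fold changes -3.82 and -2.80, adjusted p = 0.0012 and 8.2e-04, limma). So was PCOLCE, the enhancer of that proteinase and not a protease itself (log2 fold change -3.81, adjusted p = 0.0063, limma). Of 11 cell surface receptors tested, 7 were lower, 1 higher and 3 did not pass. CD44, the receptor of hyaluronan and osteopontin, was at 104 to 174 FPKM in the earlier lines, 19.9 at passage 6, 14.2 at passage 23, 0.179 in colony C8 and 0.0185 in colony A9 (log2 fold change -4.93, adjusted p = 0.013, limma, lost with no filter). Like TNC and SPP1, it was far lower in both colonies than in CHIR-P23. ITGA5, the alpha subunit of the fibronectin receptor, and ITGA4 were lower (log2 fold changes -3.62 and -3.06, adjusted p = 1.7e-04 and 0.0011, limma). ITGB8, an integrin subunit of neural progenitors that activates TGF-beta, rose by a log2 of 1.29 (adjusted p = 0.015, limma, lost with a pseudocount of 5 or no filter), from at most 0.764 FPKM to 1.53 to 5.31 FPKM.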

How the data were processed

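The 14 libraries (2 for each of 7 cell lines) are ribosome-depleted RNA sequenced in pairs of reads. The authors deposited FPKM of 33737 gene loci. Per the submitters' processing notes, HISAT2 2.1.0 was the aligner, Cufflinks 2.2.1 with its Cuffnorm 2.2.1 gave the FPKM, and Mmul_8.0.1 was the genome. Values of 28445 loci stood 1 position below their label and were moved back, and 49 loci were left out, so that 33688 were kept. By this step, 1481 of 1627 genes lay within 0.3 (log2) of the averages in a table of the study, which was used for positions only, against 144 as labelled. Of the 10 genes described, 9 lay within 0.3, LUM lay within 0.403, and BGN had needed no move. Small RNA loci at 1 FPKM or more, expected to be few, went from 184 to 13 of 478.

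Fragment counts of low genes, read from whole multiples of a step (within 0.1, for 2990 of 19371 genes), gave relative depth and the noise of each pair. Read totals were not used. The FPKM of a library summed to 571238 to 697883. The averages of the pairs were fitted as log2(FPKM + 1) with limma 3.58.1 in R 4.3.3 (intensity trend, 5 residual degrees of freedom, Benjamini-Hochberg adjustment over the 15024 genes that reached 1 FPKM in 2 or more libraries). The log2(FPKM + 1) scale understates changes of low genes. The p-values measure the spread between successive lines, not between independent conversions. Other normalizations, filters and pseudocounts, single libraries as samples and the loss of each line were tried as alternatives.

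The 10 genes, the lists and the markers were chosen with earlier results of these data known. From each list the 3 called genes with the largest change in each direction were named, and for each of the 10 genes the gene most like it. Genes named as neighbours, the single markers, HAS1 and HAS3 were chosen after their values were seen. Gene neighbourhood was read from the RefSeq annotation of the assembly T2T-MMU8v2.0 and used for names only. No sequences are shown. Python 3.11.15, NumPy 2.4.6, pandas 2.3.3 and Matplotlib 3.10.9 were used.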

Additional observations from a re-analysis of the deposited data

Results flagged for a closer look

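Among the 4 NESC lines, CHIR-P6 stood far from the others for 2 of the 10 genes beyond the limit of Dixon's test on the gap to the next line: DCN, at 1.77 FPKM in CHIR-P6 against 0.135 FPKM or less in the other lines, and POSTN, at 0.581 FPKM against 0.0537 FPKM or less. The nominal rate of flags by chance is about 1 in 20 such groups. DCN and POSTN had nearly the same course over the lines (correlation 0.989), and their levels in the other NESC lines are close to the floor. This rate therefore cannot be applied to the 2 flags as if they were independent. The sum of the fibroblast markers moved with both, with 85.1 FPKM at passage 6 against 16.4 to 35.1 FPKM later. PDGFRA (1.20 against 2.45 FPKM at passage 23), TWIST2 (4.67 against 5.62 FPKM at passage 23) and FBN1 (10.7 against 12.4 FPKM in colony A9) were higher in a later line. The remaining markers were highest at passage 6 among the NESC lines. The part of such cells was not tested.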

How the results depend on the processing

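In all alternatives other than the values as labelled, the log2 fold changes of the 10 genes were negative, and DCN, LUM, POSTN, SPARC and FN1 were called lower in 18 of 18. Not all of these could lose a call: the alternative with no fold change minimum is the same fit under a looser rule. Leaving out either library of each pair keeps nearly the same values. The count of genes called lower was 5 to 7 without any 1 line, 5 with a pseudocount of 0.1 or no filter, and 7 with a 5 FPKM minimum or quantile normalization. The related lists gave 44 to 53 lower and 6 to 9 higher genes without any 1 line. A pseudocount of 5 gave 37 lower and 4 higher, and no filter gave 39 lower and 5 higher. The median log2 fold change over all genes tested was 0.14 under quantile normalization, against -0.02 without it. Same-numbered libraries of different lines did not deviate together (21 correlations of -0.03 to 0.06). Because both libraries of a line are nearly alike, this check had little to detect and cannot exclude a pairing by number. With the 14 libraries as samples, 9 of the 10 genes were lower, and 8 with a replicate block, but these libraries are not independent.

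Left as labelled, the table gave 1 gene lower (the label DCN then holds the values of LUM), and 12 lower and 5 higher genes of the lists. Of named genes, 5 then changed sign: CSPG4 (0.37), EFEMP1 (0.027), ITGA5 (0.072), PTPRZ1 (-0.70) and SPARCL1 (-1.16). The counts of differences of at least 1 in log2(FPKM + pseudocount) between stages were then 1, 0, 1, 1, 0, 1 and 0 (day 5 against RF-P3, day 11 against day 5, CHIR-P6 against day 11, CHIR-P23 against CHIR-P6, C8-P7 and A9-P7 against CHIR-P23, C8-P7 against A9-P7). A pseudocount of 0.1 gave 2 for day 11 against day 5 and 4 each for C8-P7 against CHIR-P23 and against A9-P7, and a pseudocount of 5 gave 1 for CHIR-P23 against CHIR-P6. With 1 sample per line, depth limits what can be said of levels listed at 0.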

Other observations

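Levels of related genes that lie beside DCN, LUM and SPP1 in the genome were read as well. EPYC, KERA, LUM and DCN lie side by side, and while DCN and LUM were at 123 FPKM or more in each earlier line, EPYC, epiphycan, was at most 0.443 FPKM and KERA, keratocan, at most 0.0506 FPKM. MEPE, IBSP and DMP1, which like SPP1 encode acidic phosphoproteins of bone and tooth matrix and lie beside it, were at most 1.15 and 1.46 FPKM and listed at 0, against 2456 FPKM of SPP1 on day 11. The highest levels of IBSP (day 5) and MEPE (day 11) fell in the lines in which SPP1 was highest.

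Of 5885 genes with a symbol and at least 20 FPKM in a line, the gene with the course most like each of the 10 was found by the Pearson correlation of log2(FPKM + 1) over the 7 lines. With 7 points that share libraries and a common step at CHIR-P6, such values are a description. They were EMILIN2 for DCN (0.999), PLEC for LUM (0.998), TFPI2 for BGN (0.998), GPR107 for VCAN (0.989) and MFGE8 for POSTN (0.998). For the others they were PCDH7 for SPARC (0.992), NID2 for TNC (0.989), MYL6 for THBS1 (0.988), EMX2 for FN1 (0.999) and LAP3 for SPP1 (0.976). Within the 10, DCN and POSTN were the most alike pair (0.989), followed by DCN and LUM (0.983).

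The matricellular genes CYR61 and CTGF, which did not enter the list of named genes, were like THBS1 in the order of the colonies, with CYR61 at 13.0 FPKM in C8-P7 and 3.09 FPKM in A9-P7, and CTGF at 24.3 and 2.66 FPKM. All 3 were higher in CHIR-P23 than in CHIR-P6. These genes were chosen after their values were seen.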
